A study of Drosophila melanogaster with 4 samples.

Results

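Closely paired L(3)mbt peaks of low to middle strength are regions of the Drosophila melanogaster genome that L(3)mbt occupies at short distance from another such region. They were taken from the stricter of the authors' filtered peak lists, named for a false discovery rate of 0.5%. A peak belonged to the group when it lay on 1 of the 4 large autosomal arms (2L, 2R, 3L and 3R), had an authors' score below 50, and had the centre of another peak of the list less than 2000 bp away. The neighbour could have any score. There were 426 such peaks among 2152 autosomal peaks below 50 and 2655 autosomal peaks of any score in the list. The other 1726 autosomal peaks below 50 are the peaks they are set against. The group was thus chosen by score and by distance to the neighbour, so both are described and not tested.

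L(3)mbt, the product of lethal (3) malignant brain tumour, is a chromatin protein with MBT repeats, domains that bind methylated lysines of histone tails. Loss of the protein leads to overgrowth of the larval optic lobe, and the title of the series links it to insulator elements. Insulators are DNA elements, bound by proteins such as CP190, BEAF-32 and CTCF, that separate neighbouring domains of gene regulation. In the compact fly genome such factors often sit near promoters, many of which lie close together.

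The L(3)mbt ChIP group held 2 samples, 1 of the strain w1118 and 1 of Canton S, immunoprecipitated with a guinea pig antibody against a part of L(3)mbt. The input group likewise held 2, of DNA without immunoprecipitation, 1 per strain. All 4 samples came from brains of the third larval instar mixed with imaginal discs (those that form wings, halteres and the third pair of legs), and the larvae were kept at 25 °C. Canton S is a wild-type stock and w1118 carries a mutation of the eye colour gene white. No L(3)mbt mutant was part of these samples. The lists give 1 value per peak and name no strain, and whether each list covers both strains is not stated. There is thus no spread between replicates, the sequencing depth is unknown, and no test over samples was possible. Intervals are exact 95% binomial intervals for shares and exact order-statistic intervals for medians. They cover counting error only and are too narrow to the extent that neighbouring peaks are not independent.

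Each filtered region was 400 bp wide. Its score, a value the authors' caller gave, is close in form to a mean signal per base over the region, since score times width was a whole number within 0.01 for 100% of the list. The coordinates carry the chromosome names of genome release 5 and the gene table at hand was of release 6, so genes and sequences under the regions were not analysed here.

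Close pairing was a property of about 1 in 5 of the weaker autosomal peaks of the stricter list. The share was 19.8% (426 of 2152, interval 18.1 to 21.5%). It depended on the list, since in the longer list, named for a rate of 3%, it was 30.7% of 3155 peaks. It was highest among the lowest scores. Of the autosomal peaks scoring from 7.5025 to 10, 24.8% (155 of 625) had a neighbour under 2000 bp, followed by 20.7% (132 of 637) from 10 to 15. The share was 16.1% (82 of 510) from 15 to 25 and 15% (57 of 380) from 25 to 50. Among the 503 peaks of 50 or more, which were outside the group by the rule, 65 had such a neighbour (12.9%, interval 10.1 to 16.2%). The share was thus lower in each higher class of score.

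The paired peaks were low-scoring. Their median score was 11.6 (interval 10.8 to 12.5, range 7.5025 to 49.805, n = 426), and that of the other peaks below 50 was 13.8 (13.3 to 14.2, range 7.51 to 49.885, n = 1726). The lower median was seen on each arm. On 2L it was 10.996 for paired peaks against 14.36 for the others, and on 2R it was 12.5 against 13.2. On 3L it was 11.6 against 13.8, and on 3R it was 11.1 against 14.0. The intervals of these medians were 9.905 to 12.8 against 13.16 to 15.1 on 2L, and they overlapped on 2R, 3L and 3R. They are description only, since the rule used score, and they count the peaks of a pair as independent. The ranges of both kinds of peak overlapped almost wholly on every arm.

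In the unfiltered ChIP list, whose calls are 270 bp wide and never below a height of 5, each of these peaks had a matching call. The heights are taken to come from the same ChIP libraries as the scores, so they add no independent evidence. The call nearest to a paired peak had a median height of 26.2 (interval 24.1 to 27.9), against 30.8 (30.2 to 31.9) for the other peaks below 50. Its centre was a median of 9.5 bp from the centre of a paired peak and 7 bp from that of another peak. A single unfiltered call lay under 81.0% of the paired regions (345 of 426) and under 82.9% of the others (1430 of 1726). A pair of calls lay under 18.3% (78) of the paired regions and under 15.8% (273) of the others, intervals 14.8 to 22.3% and 14.1 to 17.6%. Paired regions were therefore mostly single summits, about as often as the others.

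The 426 peaks fell into 231 groups of neighbours on the list. Most were simple pairs. Of 209 groups of 2 peaks, 157 held 2 peaks below 50, and 52 held a peak below 50 beside one of 50 or more. Runs of 3 peaks numbered 20, and runs of 4 numbered 2. No longer run was found. Runs of 3 or more took in 60 of the 426 paired peaks (14.1%, interval 10.9 to 17.8%), and 26.4% of the 970 paired peaks of the 3% list. A peak of 50 or more stood directly beside 61 of the 426 (14.3%, interval 11.1 to 18.0%). Among all 2655 autosomal peaks of the list, 503 scored 50 or more.

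The distances within pairs were spread from 327 to 1968 bp. Adjacent peaks with at least 1 of them below 50 made up 254 pairs, counting each step of a run. Their median distance was 894 bp (interval 818 to 1023 bp), and 139 of them (54.7%) were under 1000 bp. The fullest 100-bp class was 400 to 500 bp, with 31 pairs, just beyond the width of a region. Each class from 1300 bp upwards held between 6 and 13 pairs. No peak centres of this list lay closer than 327 bp, whereas in the 3% list the closest centres were 146 bp apart.

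**Figure D1:**
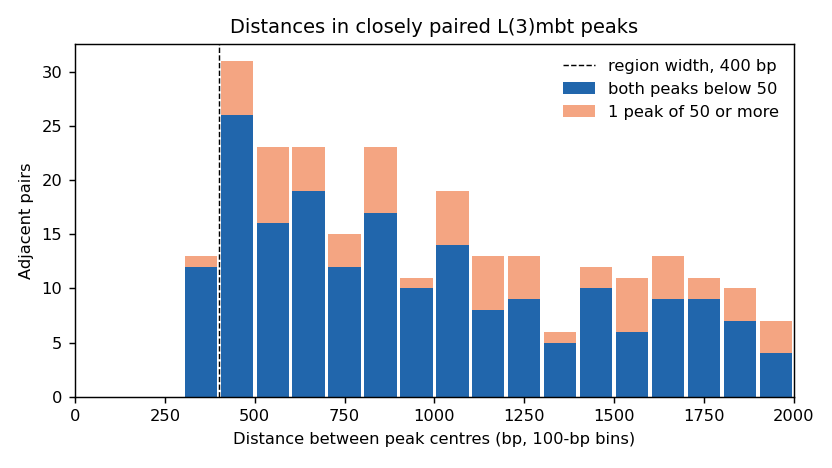
Number of adjacent pairs (y axis) by distance between peak centres in 100-bp bins (x axis, bp), with pairs of 2 peaks below 50 in blue and pairs with 1 peak of 50 or more in orange; the dashed line marks the region width of 400 bp. The fullest bin, 400 to 500 bp, holds 31 pairs, and no pair lies below 327 bp.

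Pairs with a strong peak were a little wider apart at the median. Their median distance was 1062 bp (interval 854 to 1227 bp, n = 61), against 859 bp (778 to 977 bp, n = 193) for pairs in which both peaks were below 50. The intervals overlap. The nearest-neighbour distance of paired peaks was shortest on 2R, with a median of 792 bp (n = 109), and longest on 3R, with 1020 bp (n = 107). On 2L it was 857 bp and on 3L 859 bp. The intervals on 2R (659 to 894 bp) and on 3R (858 to 1128 bp) overlapped at their ends. Where both peaks of a pair were below 50, its distance could enter such a median for each of them. The peaks fell into 58 groups on 2R and 63 on 3R, so these intervals per arm are too narrow.

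The closest pairs had regions that shared bases. This was so for 13 of the 254 pairs (5.12%), whose scores therefore share signal. The closest pair lay on 3L, with a score of 14.2 at 4169824 to 4170223 and of 8.18 at 4170151 to 4170550, 327 bp apart with 73 bp in common. The next lay on 3R, from 24127675 to 24128074 and from 24128006 to 24128405, with scores of 11.1 and 8.16 and a distance of 331 bp. A pair on 3L, at 8435323 to 8435722 and 8435681 to 8436080, scored 10.2 and 10.6 at 358 bp. These 3 pairs thus joined weak peaks to weak peaks.

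The remaining pairs of the 5 closest were of the same kind. On 3L, the regions from 14615360 to 14615759 and from 14615722 to 14616121, 362 bp apart, scored 10.7 and 8.95. A pair on 2L, at 365 bp, had scores of 9.14 in the region from 13641490 to 13641889 and 17.7 in that from 13641855 to 13642254. Among the 5 closest pairs, every peak scored below 20.

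The scores of neighbours showed no visible relation. Over the 254 pairs, Spearman's rho between the score of the first and of the second peak was -0.0032, and over the 193 pairs with both below 50 it was -0.049. These are correlations across sites of a single list, with library and depth in common, given as a description. The rule limits at least 1 score of each pair to below 50. The heights of the matching unfiltered calls gave a rho of -0.035 over all pairs. Height and score ordered the peaks of a pair alike in 225 of 254 pairs.

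**Figure D2:**
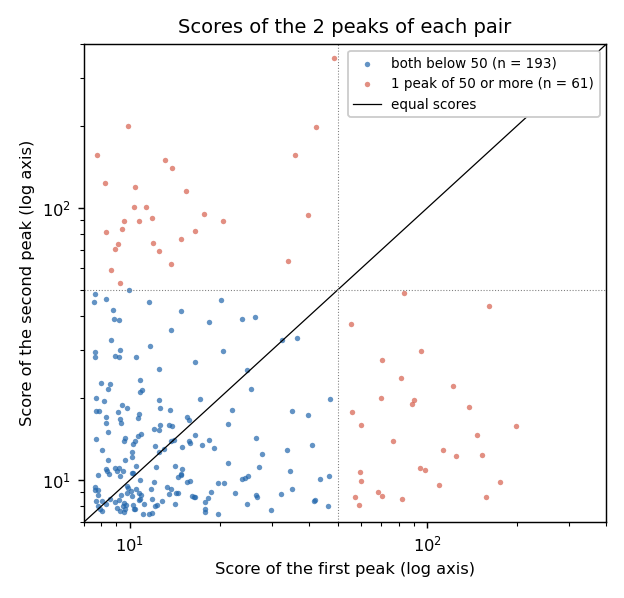
Score of the first peak (x axis) and of the second peak (y axis, both log axes, authors' score), in order along the arm, for the 193 pairs with both peaks below 50 in blue and the 61 pairs with 1 peak of 50 or more in red. Points scatter on both sides of the line of equal scores with no trend, and rho is -0.0032 over all 254 pairs.

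The higher score of a pair was a median of 1.89 times the lower one (interval 1.60 to 2.15, n = 254). In 100 of the 254 pairs (39.4%) the ratio was under 1.5, and in 48 (18.9%) it was 5 or more. Where both peaks were below 50 the median ratio was 1.47 (interval 1.35 to 1.60), with a median of 15.95 for the higher and 9.24 for the lower peak. Where 1 peak was of 50 or more the median ratio was 7.29 (interval 5.53 to 8.27), with medians of 89.8 and 12.5. Dividing the pairs at a score of 50 in itself sets these ratios apart. The peak below 50 beside a strong one thus had a median near that of the other paired peaks, 12.5 (interval 10.8 to 15.4, n = 61) against 11.2 (10.6 to 12.5, n = 365).

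The ratio of scores was then set beside the distance. For pairs with both peaks below 50, the median ratio was 1.41 at 300 to 500 bp (n = 38), 1.37 at 500 to 800 bp (n = 47) and 1.64 at 800 to 1200 bp (n = 49). It was 1.48 at 1200 to 1600 bp (n = 30) and 1.60 at 1600 to 2000 bp (n = 29). Successive peaks farther apart, again both below 50, had a median ratio of 1.58 at 2000 to 5000 bp (n = 217), and of 1.57 beyond 50000 bp (n = 343). Their rho was -0.080 at 2000 to 5000 bp and 0.048 beyond 50000 bp. The closest class, at 300 to 500 bp, had a rho of -0.23 (n = 38). With pairs that hold a peak of 50 or more included, the median ratio was higher in each farther class. It went from 1.89 under 2000 bp (n = 254) and 1.93 at 2000 to 5000 bp (n = 275) to 2.26 at 20000 to 50000 bp (n = 610). Beyond 50000 bp it was 2.31 (n = 553). The mix of pairs changed as well, since both peaks were below 50 in 193 of the 254 nearest pairs and in 343 of the 553 farthest. For pairs with both peaks below 50, the median ratio lay between 1.57 and 1.58 in every class beyond 2000 bp.

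The most unequal pairs each had a strong peak with a weak one beside it. The limits bring this about, since no score of the list was under 7.5025. The largest ratio between 2 peaks below 50 was 6.34. On 2L, a peak of 9.86 from 18151252 to 18151651 lay 1062 bp from one of 200.3 from 18152314 to 18152713, a ratio of 20.3. On 2R, a peak of 7.73 from 12984704 to 12985103 lay 1227 bp from one of 156.2 from 12985931 to 12986330, a ratio of 20.2. On 3L, a peak of 8.65 from 713962 to 714361 lay 1952 bp from one of 156.9 from 712010 to 712409, a ratio of 18.1. At least 662 bp lay between the facing ends of the regions in each of these 3 pairs.

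The other 2 of the 5 most unequal pairs were on 3R and tighter. A peak of 9.86 from 16774211 to 16774610 lay 491 bp from one of 175.3 from 16773720 to 16774119. A peak of 8.27 from 26886406 to 26886805 lay 662 bp from one of 122.9 from 26887068 to 26887467. The weak peak was under 10 in all 5 of these pairs, though picking pairs by ratio favours low scores.

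The most equal pairs stood at varied distances. At least 1 peak of each pair had to be below 50, so nearly equal scores could not lie far above that limit. On 2R, peaks from 2549319 to 2549718 and from 2550383 to 2550782, 1064 bp apart, scored 14.0 and 14.0, a ratio of 1.003. On 2L, peaks from 16847098 to 16847497 and from 16848778 to 16849177, 1680 bp apart, scored 8.55 and 8.50. On 2R, peaks from 3673272 to 3673671 and from 3673656 to 3674055, 384 bp apart, scored 13.0 and 12.9 and shared 16 bp. Nearly equal scores thus also occurred in pairs whose regions did not overlap. Whether they were more frequent where regions overlap was not tested.

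The highest-scoring equal pair among the 5 lay on 2R from 20073994 to 20074393 and from 20074927 to 20075326, with scores of 32.4 and 32.8 at 933 bp. The last lay on 2L from 19163252 to 19163651 and from 19165075 to 19165474, with scores of 7.92 and 7.85 at 1823 bp. It opens a run of 4 peaks.

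That run was the only one of 4 peaks in which every peak was below 50. Its peaks on 2L from 19165898 to 19166297 and from 19167171 to 19167570 had scores of 17.9 and 8.28. The whole run covered 4319 bp. The other run of 4 was on 3L from 8593860 to 8597866, over 4007 bp. Its peaks scored 14.5, 8.93, 70.5 and 8.73 in order of position, so the third, above the limit of 50, was far higher than the weak peaks on either side. The last of them was only 383 bp from it, so that their regions shared bases.

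The 20 runs of 3 peaks covered between 1567 and 4095 bp, with a median of 2190.5 bp. Of the 20, 14 consisted only of peaks below 50, and 5 had 1 peak of 50 or more. In 1 run, on 2L from 72141 to 74151, a peak of 9.60 followed peaks of 141.0 and 109.5. The highest score stood in the middle in 11 of the 20 and the lowest in 3. A clear case was on 3L from 3222824 to 3225688, where a peak of 46.3 lay between peaks of 8.31 and 8.02. The reverse order was seen on 3L from 246837 to 248535, with 41.9 and 21.5 on either side of 8.41. Runs of 3 or more numbered 7 on 3L, 6 on 2R, 5 on 2L and 4 on 3R.

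**Figure D3:**
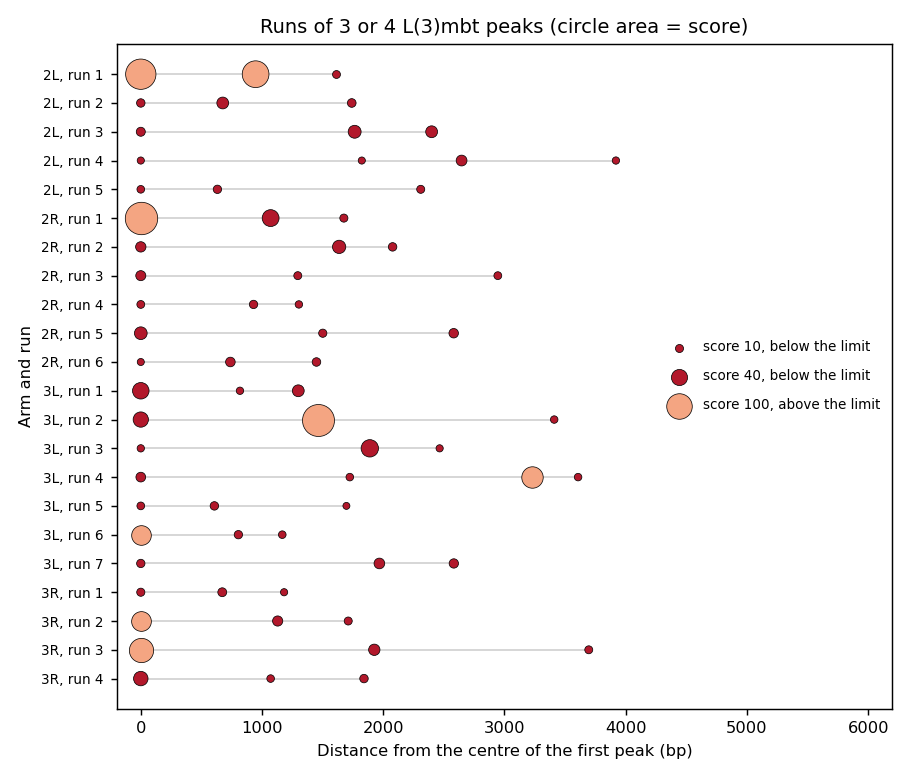
The 22 runs of 3 or 4 L(3)mbt peaks that hold a peak below 50, 1 per row by arm and position, with the distance of each peak centre from the first centre of its run (x axis, bp); the circle area is proportional to the score, red for peaks below 50 and orange for peaks of 50 or more. A strong peak is present in 7 of the 22 runs, and the longest run, the fourth on 2L, holds 4 weak peaks.

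Paired peaks at the upper end of the group were few. The 5 highest had scores of 49.8, 48.7, 48.7, 48.2 and 47.2. Their neighbours differed greatly. The peak of 49.8 on 3R, from 2911983 to 2912382, lay 740 bp from one of 9.94. On 3R, the peak of 48.7 from 794929 to 795328 lay 1551 bp from one of 354.7, the highest score beside any paired peak. On 3L, the peak of 48.7 from 4554220 to 4554619 lay 845 bp from one of 83.4. High scores in the group thus went with neighbours on either side of the limit.

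The other 2 had weaker neighbours. On 3L, the peak of 48.2 from 16405400 to 16405799 lay 1811 bp from one of 7.61. On 2L, the peak of 47.2 from 3144701 to 3145100 lay 858 bp from one of 19.8. At the limits of the rule, the peak just above a score of 50 with a close neighbour scored 52.3 (3R, from 27046189 to 27046588). The paired peak with the farthest neighbour was 1968 bp from it, on 3L from 15491836 to 15492235. The unpaired peak below 50 with the nearest neighbour was 2005 bp away, on 2R from 10319702 to 10320101. Their scores were 10.7 and 12.5.

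In some pairs an unfiltered ChIP call lay in the gap between the peaks, mainly where the gap was wide. In 97 of the 254 pairs (38.2%, interval 32.2 to 44.5%), at least 1 further call was centred between the facing ends of the regions. The share was 4.55% (2 of 44) at 300 to 500 bp and 13.1% (8 of 61) at 500 to 800 bp. It was 48.5% (32 of 66) at 800 to 1200 bp, 64.3% (27 of 42) at 1200 to 1600 bp and 68.3% (28 of 41) at 1600 to 2000 bp. A narrow gap leaves little room for a call, which this comparison does not correct for. Calls outside filtered peaks were also common near the other peaks below 50, of which 34.2% (591 of 1726) had none within 2000 bp. Of the paired peaks, 21.6% (92 of 426) had none. At 500 to 1000 bp, paired peaks in groups of 2 had 551.9 such calls per Mb towards the partner and 688.5 outward. At 1000 to 2000 bp the order was the reverse, with 494.5 and 360.7 per Mb. The other peaks below 50 had 598.5 and 294.3 per Mb at these distances. Most filled gaps held 1 call (64 pairs), and the most held 5 (1 pair). A call is 270 bp wide, so in a narrower gap it also reaches into a region.

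From 500 to 50000 bp around the paired peaks, unfiltered ChIP calls outside any filtered peak were denser than around the others. This range reaches beyond the distance that the rule used. Within 500 bp such calls were sparser around paired peaks, at 262.9 against 283.3 per Mb. Each call was counted once for every peak it lay near. Both sides of a peak were counted, so the stretch beyond 2000 bp also takes in the far flank of the partner. At 2000 to 5000 bp from the centre there were 306.3 such calls per Mb around paired peaks (783 calls) and 228.0 around the other peaks below 50 (2361 calls). At 5000 to 10000 bp the densities were 239.0 and 195.8 per Mb. At 50000 to 100000 bp they were 131.4 and 133.9 per Mb. The densities were thus alike at 50000 to 100000 bp, and higher around paired peaks at 2000 to 5000 and at 5000 to 10000 bp.

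Counted over both sides, with the flank of the partner included, the difference at 2000 to 5000 bp had the same direction on each arm. The arms and score classes were not counted for the outward side alone. The densities were 301.9 per Mb around paired peaks and 235.4 around the others on 2L, and 289.0 and 241.0 on 2R. They were 288.5 and 195.4 on 3L, and 345.8 and 238.2 on 3R. It also had the same direction in each of the 4 score classes below 50, from 287.9 against 244.6 per Mb at scores of 10 to 15 to 321.1 against 204.8 per Mb at scores of 15 to 25. On the side facing away from the partner, the 366 paired peaks in groups of 2 had 255.0 calls per Mb at this distance and 305.1 on the partner's side. Against 228.0 per Mb around the other peaks, the surplus at this distance was thus smaller on the outward side. The order was the reverse at 5000 to 10000 bp, with 236.6 per Mb outward and 219.7 on the partner's side, against 195.8 around the other peaks. No test was made of these densities, because calls near one another and peaks of a pair are not independent.

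The surroundings also held other filtered peaks, among them the far peaks of runs of 3 or 4. Their density at 2000 to 5000 bp was 52.8 per Mb around paired peaks (135 peaks) and 44.9 around the other peaks below 50 (465 peaks). At 5000 to 10000 bp it was 36.6 and 42.9 per Mb, and at 20000 to 50000 bp it was 36.5 and 32.8 per Mb. The direction thus differed between distances. The nearest peak of 50 or more outside the own group of neighbours was a median of 89268 bp away from paired peaks (interval 78420 to 100690 bp) and 62529 bp from the others (57881 to 67578 bp). The medians thus placed paired peaks farther from the next strong peak than the others, and these intervals do not overlap, though peaks of one pair share nearly the same distance. For a paired peak, a strong partner was left out of this distance by construction. Among the 365 paired peaks with no strong neighbour, to which this hardly applies, the median was 91462 bp (interval 79272 to 107409 bp). A peak found only in the 3% list lay within 2000 bp of 9.39% of paired peaks (40) and of 10.6% of the others (183), with intervals of 6.79 to 12.6% and 9.19 to 12.2%.

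The input list, which the rule did not use, was sparse close to both kinds of peak and sparser close to paired ones. Within 500 bp of the centre, input peaks had a density of 133.8 per Mb around paired peaks and 176.7 around the others. Since ChIP and input calls hardly ever share a centre in these lists, as given below, the input list is not an independent check. Of the paired regions, 24 shared 1 bp or more with an input peak (5.63%, interval 3.64 to 8.27%), and of the other peaks below 50, 126 did (7.30%, interval 6.12 to 8.63%). Within 500 bp of the region an input peak was present for 23.0% of paired peaks (98, interval 19.1 to 27.3%) and 29.0% of the others (500, interval 26.8 to 31.2%). Input peaks were centred 500 to 1000 bp from the centre at 223.0 per Mb around paired peaks and 313.4 around the others, and at 1000 to 2000 bp at 349.8 and 432.8 per Mb. At 2000 to 5000 bp the densities were 448.4 and 459.9 per Mb. The shortage near paired peaks thus faded at the distance within which their partner lies.

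**Figure D4:**
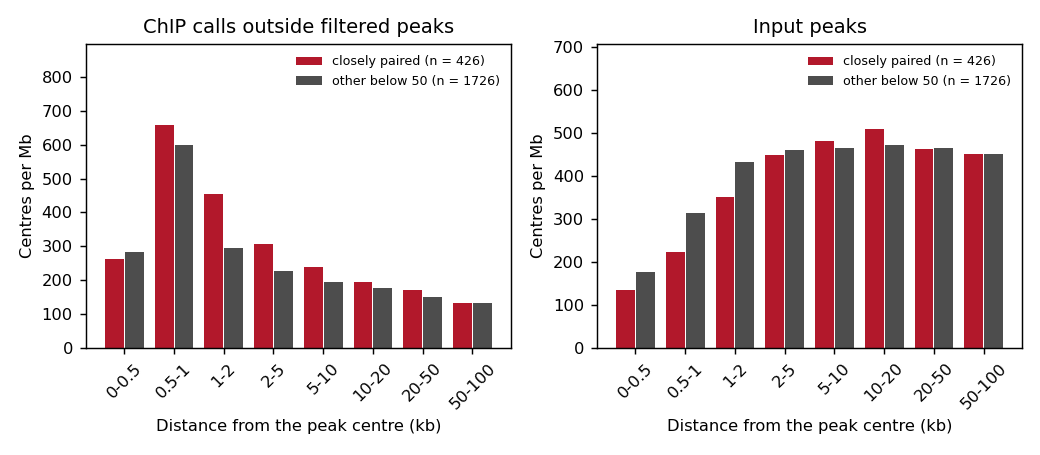
Density of unfiltered ChIP calls that overlap no filtered peak (left) and of input peaks (right), as centres per Mb (y axis), by distance from the peak centre (x axis, kb), around the 426 closely paired peaks (red) and the 1726 other autosomal peaks below 50 (grey). ChIP calls are denser around paired peaks from 0.5 to 50 kb, and input peaks are sparser mainly within 2 kb.

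The shortage was on the partner's side, where the partner's own region takes up part of the stretch. For the 366 paired peaks in groups of 2, input peaks at 500 to 1000 bp had a density of 322.4 per Mb on the side away from the partner (59 input peaks) and 169.4 per Mb on the partner's side (31 input peaks). The other peaks below 50 had 313.4 per Mb over both sides. At 1000 to 2000 bp the side away from the partner had 429.0 per Mb, the partner's side 295.1, and the other peaks 432.8. On its outward side a paired peak was therefore surrounded by about as many input peaks as an unpaired one. ChIP and input calls hardly ever share a centre in these lists, since 1 of 14809 unfiltered ChIP calls on the 4 arms had an input centre within 100 bp, and the part of this exclusion in the shortage was not tested.

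Paired peaks were present on all 4 arms. They numbered 109 on 2R, 107 on 3R, 106 on 2L and 104 on 3L, or 5.15, 3.84, 4.61 and 4.24 per Mb in that order. As a share of the arm's peaks below 50 they made up 22.5% on 2L (interval 18.8 to 26.5%), 20.3% on 2R (17.0 to 24.0%), 20.0% on 3L (16.6 to 23.7%) and 17.2% on 3R (14.3 to 20.4%). These intervals overlap. With each arm cut into 3 equal parts, the part on the telomere side held 37.3% of the paired peaks (159, interval 32.7 to 42.1%) and 35.2% of the others (608, interval 33.0 to 37.5%). The part on the centromere side held 27.9% of the paired peaks (119) and 31.2% of the others (538).

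With each arm cut into 10 equal parts, numbered from the centromere side, the paired share of the peaks below 50 ran from 15.2% in part 4 (30 of 197) to 25.3% in part 8 (55 of 217), with intervals of 10.5 to 21.0% and 19.7 to 31.7% that overlap slightly. Part 10 had 16.1% (40 of 249), so that no steady rise towards the telomere was seen. Within 1 Mb of the centromere-side end lay 4 paired peaks (0.939%) and 34 others (1.97%). Within 1 Mb of the telomere-side end lay 21 (4.93%) and 94 (5.45%).

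**Figure D5:**
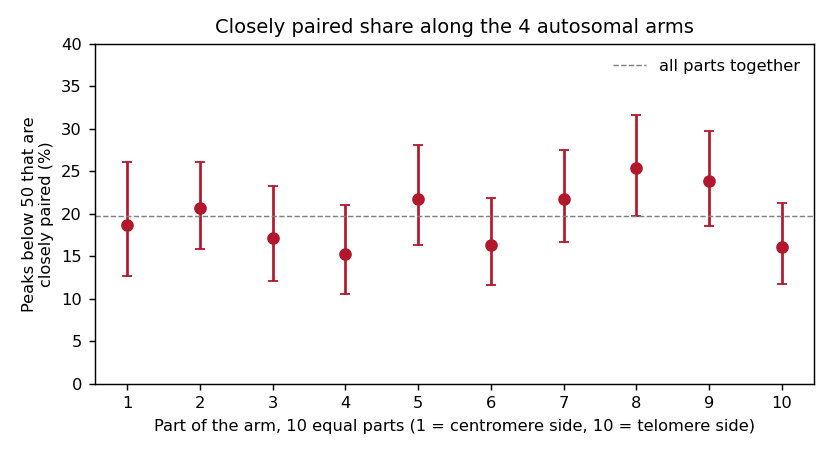
Share of the autosomal peaks below 50 that are closely paired (y axis, percent, points with exact 95% binomial intervals) in 10 equal parts of the arm from the centromere side to the telomere side (x axis), for the 4 autosomal arms together; the dashed line is the share over all parts, 19.8%. The shares run from 15.2% in part 4 to 25.3% in part 8, with no steady trend.

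In windows of 100 kb, 200 of 967 held a paired peak. There were 2 paired peaks in 111 windows, 1 in 49 and from 3 to 7 in the rest. The fullest window lay on 2L from 19500001 to 19600000, with 7 paired peaks in 3 groups among 12 filtered peaks, all of them below 50. Paired scores there ran from 8.40 to 41.9. The next were also on 2L, from 6000001 to 6100000 with 6 paired peaks among 9 and from 21100001 to 21200000 with 6 among 6. In these 3 windows no filtered peak reached 50. The autosomal arms held 503 peaks of 50 or more against 967 windows, so many windows had none. The 3 windows were picked for their number of paired peaks, and the share of all windows without a strong peak was not counted. Whether the lack of one is particular to these windows was not tested.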

How the data were processed

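The 4 samples, 2 of L(3)mbt ChIP and 2 of input, are described by 4 deposited peak lists, each with 1 score per peak made by the authors. Per the submitters' processing notes Bowtie was used, with no version stated. The caller is called pypeak by the submitters. Nothing in the sources used here states its settings, the genome build, whether strains were pooled, or any scaling to depth or subtraction of input. In the unfiltered lists the deposited score is called the height, and values were compared only within a list. The rates of 0.5% and 3% are read from how the authors named the filtered lists. No column belonged to another sample (0).

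Start positions were shifted to count from 1, and distances run between region centres. Arm length was taken as the end of the last peak in any list. Arm ends follow from the arm names, with the centromere at the high end of 2L and 3L and at the low end of 2R and 3R. A group or run joins successive peaks less than 2000 bp apart. The peaks and pairs named are the 5 closest, most unequal and most equal pairs, runs of 4, the 5 highest scores, those next to the limits and the 3 fullest windows. Runs of 3 were picked for naming once their scores were known. The members and rules were chosen with earlier results of these data known. Planned gene names and motif searches were not run for want of a matching release. The neighbour and overlap steps were tested on simulated data. No test over samples was possible. Tables were handled in pandas 2.3.3 and numpy 2.4.6 under Python 3.11.15, intervals came from scipy 1.17.1 and plots from matplotlib 3.10.9.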

Additional observations from a re-analysis of the deposited data

How the results depend on the processing

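Nothing here has a test, so a value counted as kept when it stayed within the 95% interval of the value reported. Of 69 repeats over 9 results, 52 did, and 17 moved. Most moves follow from the construction of the alternative. The closely paired share was 11.4% with pairs under 1000 bp, 38.8% under 5000 bp, 30.7% in the 3% list and 17.2% where both peaks had to be below 50. The median distance was 603.5 bp, 1910 bp and 743 bp under the first 3 of these. The share in runs of 3 or more was 6.10%, 29.7% and 26.4% under the same 3. The median score ratio was 1.47 where both peaks had to be below 50. The median score was 8.82 in the 3% list and 10.6 with a score limit of 25. Input overlap was 0% when at least 200 bp had to be shared and 23.0% with regions widened by 500 bp. A call in the gap to the neighbour was found for 18.3% of paired peaks with pairs under 1000 bp and for 53.9% under 5000 bp, against 36.4% as reported. Spearman's rho stayed between -0.097 and 0.018 in its 7 alternatives, and the part of the arms on the telomere side, of 3, held from 35.0% to 39.4% in its 8. Reducing overlapping regions to the higher-scoring one, added after seeing the data, moved no result. No paired analysis was possible because the lists hold no value per sample. Depth is unknown, so weak peaks missing from a list cannot be told from unoccupied sites.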
